A study of Macaca mulatta with 20 samples.

Results

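Genes that carry cholesterol out of lysosomes, across the cell membrane and between lipoproteins were followed in rhesus macaque corpora lutea over a course of human chorionic gonadotropin (hCG). The 8 genes were NPC2, NPC1, APOE, PLTP, ABCA5, ABCA1, ABCG1 and NR1H3, and every probe set of the array whose annotation names a single one of these symbols was taken. This gave 9 probe sets for 7 genes, of 52707 probe sets tested and of 14132 genes that have a probe set with a single symbol. APOE has 3 probe sets and the other 6 genes have 1 each, while no probe set carries ABCG1 as its single symbol. No threshold on the values enters this choice of probe sets, but the genes were chosen with earlier results of these data known.

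The study set corpora lutea of female macaques exposed to hCG against untreated ones, to follow a simulated early pregnancy. Baseline tissue was untreated and taken on luteal day 10. Recombinant hCG was injected into muscle 2 times a day from luteal day 9, in doses that went up from 15 to 2880 IU, and tissue was taken on luteal day 10 (1 day of hCG), day 12 (3 days), day 15 (6 days) and day 18 (9 days). Each of the 5 groups has 4 arrays, 20 in all, each hybridised with RNA of whole luteal tissue. The labels give 4 corpora lutea a day and do not say whether these came from separate animals, so p-values measure the spread between these samples. Across the hCG groups, days of hCG, luteal day and dose go up together and cannot be told apart. No untreated tissue of days 12, 15 or 18 was analysed here, so only hCG day 10 is set against untreated tissue of the same luteal day.

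The corpus luteum makes progesterone from cholesterol, much of which arrives in lipoproteins and is freed in lysosomes. NPC2, a soluble lysosomal protein, binds that cholesterol and passes it to NPC1 in the lysosomal membrane, which releases it to the rest of the cell. Cholesterol in excess leaves through ABCA1 and ABCG1 to apolipoproteins such as APOE. PLTP moves phospholipid between lipoprotein particles, and the oxysterol receptor LXR alpha, encoded by NR1H3, switches on ABCA1, ABCG1, APOE and PLTP in many cells.

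Values are the authors' probe set signals on a linear intensity scale. All arrays share a 2% trimmed mean of about 200, and their medians ran from 31.6 to 46.4. A signal under 16 was read as close to background. A log2 change is the difference of group means of log2(signal + 16), which understates the change of dim probe sets. It was tested with limma over all 20 arrays and called at a Benjamini-Hochberg adjusted p under 0.05 over all 52707 probe sets. The luteal cell markers STAR and HSD3B2 were read in every array, at signals of 11282 to 23031 and 1742 to 11335. They are the 2 measured of 4 defining luteal markers, as CYP11A1 and LHCGR had no probe set with a single symbol. On the third principal component 3 arrays stood apart: the second untreated replicate, the first replicate of hCG day 12 and the second of hCG day 15. They lay at -54.8 to -50.2 against -4.82 to 23.6 for the other 17 arrays. The main changes of the members other than ABCA1 are also given without these 3 arrays, and list genes where their call against untreated tissue ended without them.

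Over the 5 groups, limma's moderated F test called 4 of the 9 probe sets, 1 each of NPC2, PLTP, APOE and ABCA5, against 4.52% of all probe sets tested. At 1 probe set per gene, 7.01% of genes were called. In that share APOE is represented by MmugDNA.31898.1.S1_s_at, which was not called (F test, limma adjusted p = 0.213). Without the 3 arrays that stood apart NPC2, PLTP and ABCA5 were called and APOE was not (limma adjusted p = 0.054). The NPC2 call in this F test ended under 4 of 10 alternative settings (a pseudocount of 1, median-centring, quantile normalisation and the replicate number as a block, limma adjusted p up to 0.0914) and with 10 of the 20 arrays left out in turn. Against untreated tissue, 3 of the 9 were higher on hCG day 18 and none was lower. These were NPC2, PLTP and 1 probe set of APOE, where 3.9% of all probe sets and 6.09% of genes were called. The APOE probe set that represents the gene in the share of genes was not called (limma adjusted p = 0.0688). On hCG day 15 only the APOE probe set called on hCG day 18 was called, 1 of 9 against 1.29% of all probe sets. On hCG days 10 and 12 limma called 0 of 9, and 2 and 3 of them had an unadjusted p under 0.05. The background of called probe sets on those days was 0.954% and 0.288%. Of all 52707 probe sets, 6545 on hCG day 10 and 5566 on hCG day 12 had an unadjusted p under 0.05. The unadjusted counts of the 9 are to be read beside these numbers and not beside the shares called. The median log2 change of the 9 probe sets was 0.50 on hCG day 18, beside a median of -0.03 over all probe sets. Of the 9, 3 are probe sets of APOE, whose values followed each other, and 1 of these holds the median. The 4 comparisons with untreated tissue share the untreated arrays, so they are not independent of each other. Because the genes were chosen with earlier results of these data known, a share of members above the background is a description and no test of them.

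**Figure D1:**
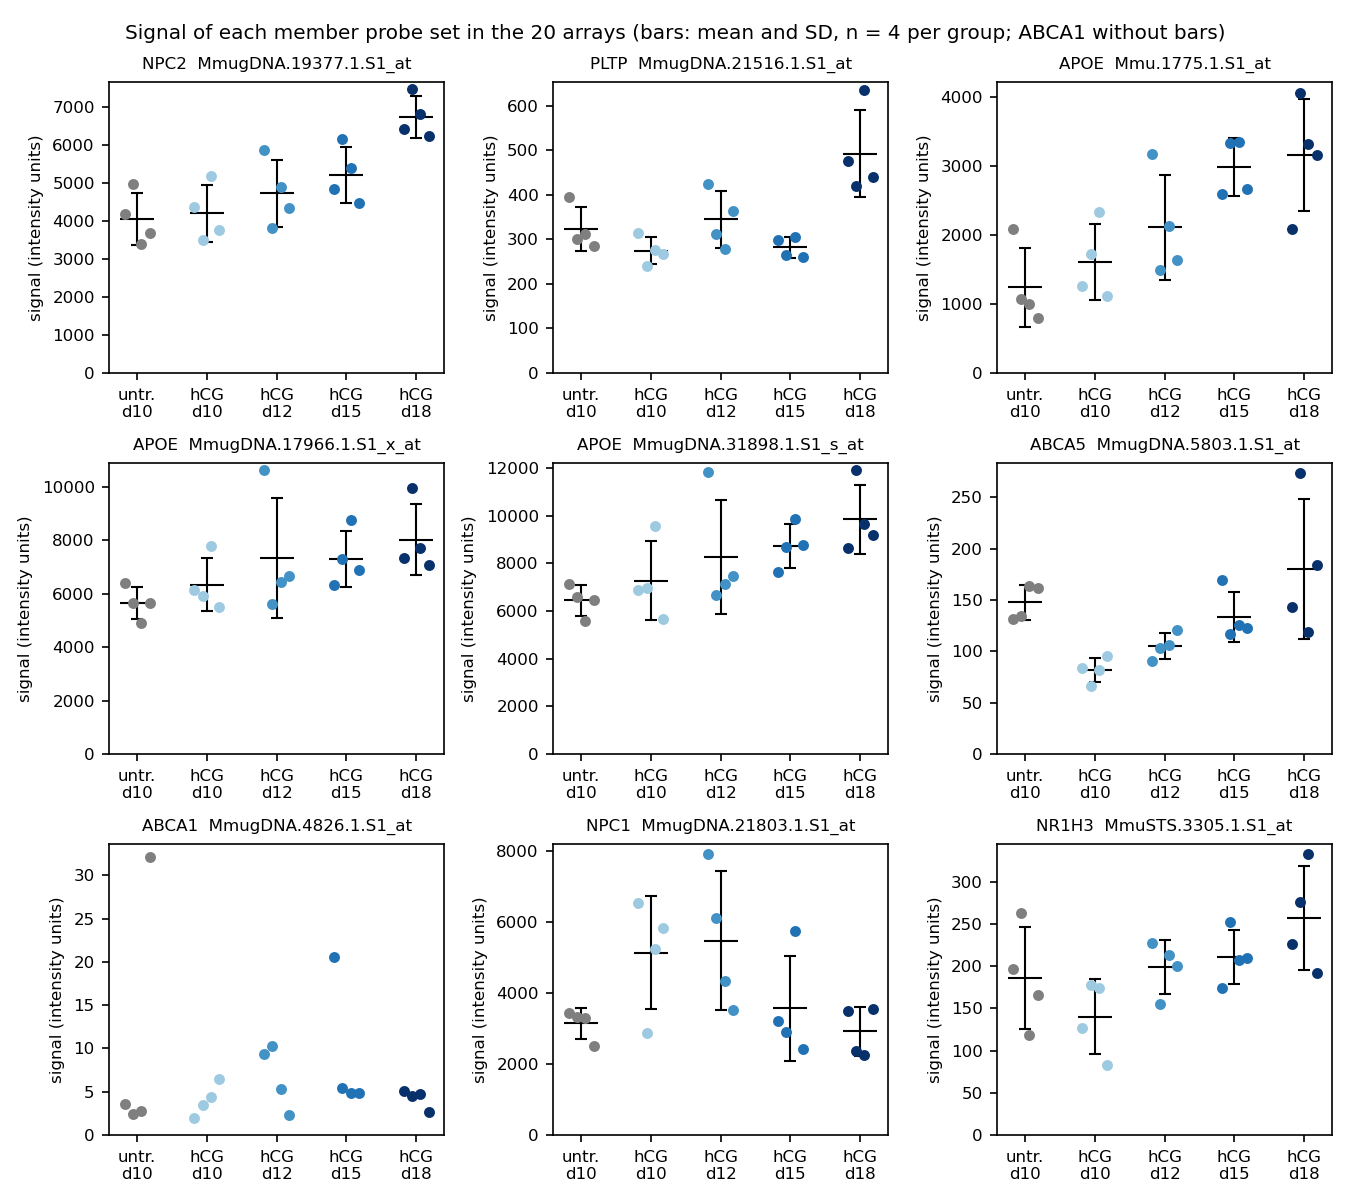
Signal of each of the 9 probe sets (vertical axis, linear intensity units) in each array, with 1 point per array and the 5 groups from untreated day 10 to hCG day 18 on the horizontal axis. Horizontal and vertical bars are the group mean and SD of 4 arrays, left out for ABCA1, which lies near background. The 4 hCG day 18 arrays of NPC2 lie above all other arrays, and those of PLTP above all but 1 array of hCG day 12.

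APOE, the apolipoprotein that takes up effluxed cholesterol and binds lipoprotein receptors, had the largest change among the 9 probe sets. Its 1 probe set with the plain suffix _at, called the plain APOE probe set here, read 803, 999, 1065 and 2086 in untreated tissue, 1114, 1258, 1719 and 2328 on hCG day 10, and 1489, 1639, 2127 and 3173 on hCG day 12. It read 2587, 2664, 3332 and 3348 on hCG day 15, and 2085, 3151, 3313 and 4051 on hCG day 18. All 4 arrays of hCG day 15 lay above the 4 untreated ones, whereas the lowest hCG day 18 array, replicate 1, fell just under the highest untreated array, replicate 1. Means were 3150.3 ± 811 on hCG day 18 and 1238 ± 576 in untreated tissue (SD, n = 4 each), and the fitted difference was 2.63-fold.

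The limma log2 change of this APOE probe set against untreated tissue was 1.34 ± 0.29 on hCG day 15 (SE, adjusted p = 0.0256) and 1.39 ± 0.29 on hCG day 18 (adjusted p = 0.00936). It was 0.41 ± 0.29 on hCG day 10 (adjusted p = 0.616) and 0.79 ± 0.29 on hCG day 12 (adjusted p = 0.343). The order of the group means followed the days of hCG, but no pair of neighbouring days was called. The difference of hCG day 18 from hCG day 15 was 0.05, with a 95% interval of -0.57 to 0.67. Without the 3 arrays that stood apart the day 15 change was 1.25 (limma adjusted p = 0.116) and no longer called; the day 18 change was then 1.35 (limma adjusted p = 0.0266).

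The other 2 APOE probe sets moved the same way by less and were not called. MmugDNA.31898.1.S1_s_at read 8635, 9179, 9648 and 11921 on hCG day 18, against 5603, 6469, 6582 and 7148 in untreated tissue. MmugDNA.17966.1.S1_x_at read 7060.2, 7337, 7718 and 9966 on hCG day 18, against 4909, 5639, 5666 and 6395 in untreated tissue. In both, the hCG day 18 arrays lay above all untreated arrays. The limma log2 changes on day 18 were 0.60 ± 0.18 (adjusted p = 0.0688) and 0.50 ± 0.18 (adjusted p = 0.149). Leaving out the 3 arrays that stood apart gave 0.61 (limma adjusted p = 0.0655) and 0.50 (limma adjusted p = 0.133). The suffixes s_at and x_at mark probe sets whose probes can match more than 1 transcript, and in the RefSeq gene table of the T2T-MMU8v2.0 assembly APOE lies between TOMM40 and APOC1. Over the 20 arrays these probe sets followed each other with Pearson's r of 0.97, and followed the plain APOE probe set with r of 0.88 and 0.83.

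PLTP, the phospholipid transfer protein, was higher on hCG day 18 and did not follow a gradual course. Its probe set MmugDNA.21516.1.S1_at read 285, 301, 311 and 395 in untreated tissue, 241, 266, 277 and 315 on hCG day 10, and 279, 312, 364 and 425 on hCG day 12. It read 260.2, 264, 299 and 306 on hCG day 15, and 420.4, 439, 476 and 635 on hCG day 18. The day 18 arrays stood above the untreated arrays without overlap, and hCG day 12 replicate 1, 1 of the 3 arrays that stood apart, came just above the lowest of them. The log2 change of PLTP against untreated tissue was 0.58 ± 0.15 on hCG day 18 (SE, limma adjusted p = 0.0354), and the fitted difference was 1.49-fold. On hCG days 10, 12 and 15 it was -0.22, 0.09 and -0.18, with limma adjusted p of 0.602 or more, and the small day 12 value turned to -0.04 without the 3 arrays that stood apart. Without the 3 arrays that stood apart the day 18 change was 0.55 (limma adjusted p = 0.0821). Leaving out hCG day 18 replicate 1 or 3, or untreated replicate 2, 3 or 4, ended the call too, with changes of 0.45 to 0.59 and limma adjusted p of 0.0663 to 0.123. It ended as well with a pseudocount of 1 (limma adjusted p = 0.0747) and with only the arrays of the groups compared (0.0973).

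NPC2, which lifts cholesterol from the lysosomal lumen, had group means that were higher at each later step of the course. Its probe set MmugDNA.19377.1.S1_at read 3399.8, 3689, 4188 and 4975 in untreated tissue, 3504, 3762, 4367 and 5178 on hCG day 10, and 3807, 4335, 4909 and 5867 on hCG day 12. It read 4468, 4855, 5412 and 6150.1 on hCG day 15, and 6249, 6423, 6828 and 7473 on hCG day 18. Untreated and hCG day 10 arrays spanned nearly the same range, and the hCG day 18 arrays did not overlap with any other group. Means were 6743 ± 544 on hCG day 18 and 4063 ± 689.8 in untreated tissue (SD, n = 4 each), and the fitted difference was 1.67-fold.

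The log2 change of NPC2 against untreated tissue was 0.74 ± 0.16 on hCG day 18 (SE, limma adjusted p = 0.0108). It was 0.05 on hCG day 10, 0.21 on hCG day 12 and 0.37 on hCG day 15, none of them called (limma adjusted p = 0.364 on day 15). Without the 3 arrays that stood apart the day 18 change was 0.84 (limma adjusted p = 0.00486). It stayed called under each of the 11 alternative settings and with each of the 20 arrays left out in turn, with limma adjusted p of at most 0.0453.

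NPC1, the membrane partner of NPC2, did not share this course. Its probe set MmugDNA.21803.1.S1_at read 2498, 3302, 3307 and 3443 in untreated tissue, 2877, 5242, 5831 and 6538 on hCG day 10, and 3516, 4327, 6108 and 7907 on hCG day 12. It read 2411, 2908, 3208 and 5729 on hCG day 15, and 2252, 2366, 3485 and 3544 on hCG day 18. On hCG day 12 all 4 arrays lay above the untreated arrays, and on hCG day 10 replicate 2 was the 1 array that did not. The log2 change of NPC1 against untreated tissue was 0.65 ± 0.29 on hCG day 10 (SE, limma adjusted p = 0.374), 0.74 ± 0.29 on hCG day 12 (limma adjusted p = 0.38), 0.11 on hCG day 15 and -0.13 on hCG day 18. No comparison called NPC1, and without the 3 arrays that stood apart its changes were 0.68, 0.57, 0.21 and -0.10 on the same days. The difference of hCG day 18 from hCG day 12 was -0.87, with a 95% interval of -1.48 to -0.25 (limma adjusted p = 0.173). Across the 20 arrays NPC1 and NPC2 had a Pearson's r of -0.15.

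ABCA5, a transporter of late endosomes and lysosomes linked to cholesterol efflux, was lowest after 1 day of hCG. Its probe set MmugDNA.5803.1.S1_at read 132, 134, 162 and 163 in untreated tissue, 66.2, 81.4, 83.6 and 95.8 on hCG day 10, and 90.5, 103, 106 and 121 on hCG day 12. It read 116, 122, 126 and 169 on hCG day 15, and 118, 143, 184 and 273 on hCG day 18. The arrays of hCG days 10 and 12 all lay below the untreated arrays, and those of days 15 and 18 overlapped with them. The group means were higher at each later day of hCG, and the widest spread was on day 18, where replicate 2 held the highest value.

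On hCG day 10 ABCA5 averaged 81.8 ± 12.1, against 148 ± 17.1 in untreated tissue (SD, n = 4 each). The log2 change was -0.75 ± 0.19 (SE, limma adjusted p = 0.065) and was not called. It was called with 3 of the 11 alternative settings, the upper 50% of probe sets by mean (limma adjusted p = 0.0374), array weights (0.0336) and 1 probe set per gene (0.0359). The first and last of these left the change at -0.75 and tested fewer probe sets. It moved away from the threshold with median-centring (0.154), quantile normalisation (0.135) and a pseudocount of 1 (0.108). Without any 1 of the untreated or hCG day 10 arrays it was not called (up to 0.169). Without the 3 arrays that stood apart it was at -0.79 (0.122). It was also called without hCG day 18 replicate 2 (0.0195) or replicate 3 (0.0427). Its changes on hCG days 12, 15 and 18 were -0.44, -0.14 and 0.20, with limma adjusted p of 0.417 or more. ABCA5 was called over the 5 groups (F test, limma adjusted p = 0.0209), but in no single contrast with untreated tissue. In the RefSeq gene table ABCA5 lies next to ABCA10, a related transporter with a probe set of its own.

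The cholesterol exporter ABCA1 lay near background. Its probe set MmugDNA.4826.1.S1_at was under 16 in 18 of the 20 arrays, and the exceptions were 32.2 in untreated replicate 4 and 20.5 in hCG day 15 replicate 1. The gene identifier that the annotation gives for it is not in the RefSeq gene table, unlike those of the other 8 probe sets. No direction was read from ABCA1.

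NR1H3, the oxysterol receptor LXR alpha, was not called against untreated tissue on any day. Its probe set MmuSTS.3305.1.S1_at read 119, 165, 197 and 263 in untreated tissue, 83.0, 127, 174 and 177 on hCG day 10, and 155, 199.8, 214 and 228 on hCG day 12. It read 174, 208, 209 and 252 on hCG day 15, and 191, 226, 276 and 333 on hCG day 18. The hCG day 18 arrays overlapped with the untreated ones and lay above all arrays of hCG day 10. The log2 change of NR1H3 against untreated tissue was 0.45 ± 0.23 on hCG day 18 (SE, limma adjusted p = 0.366) and -0.37 ± 0.23 on hCG day 10 (limma adjusted p = 0.55). With the 3 arrays that stood apart left out these were 0.63 (limma adjusted p = 0.203) and -0.20 (limma adjusted p = 0.78).

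**Figure D2:**
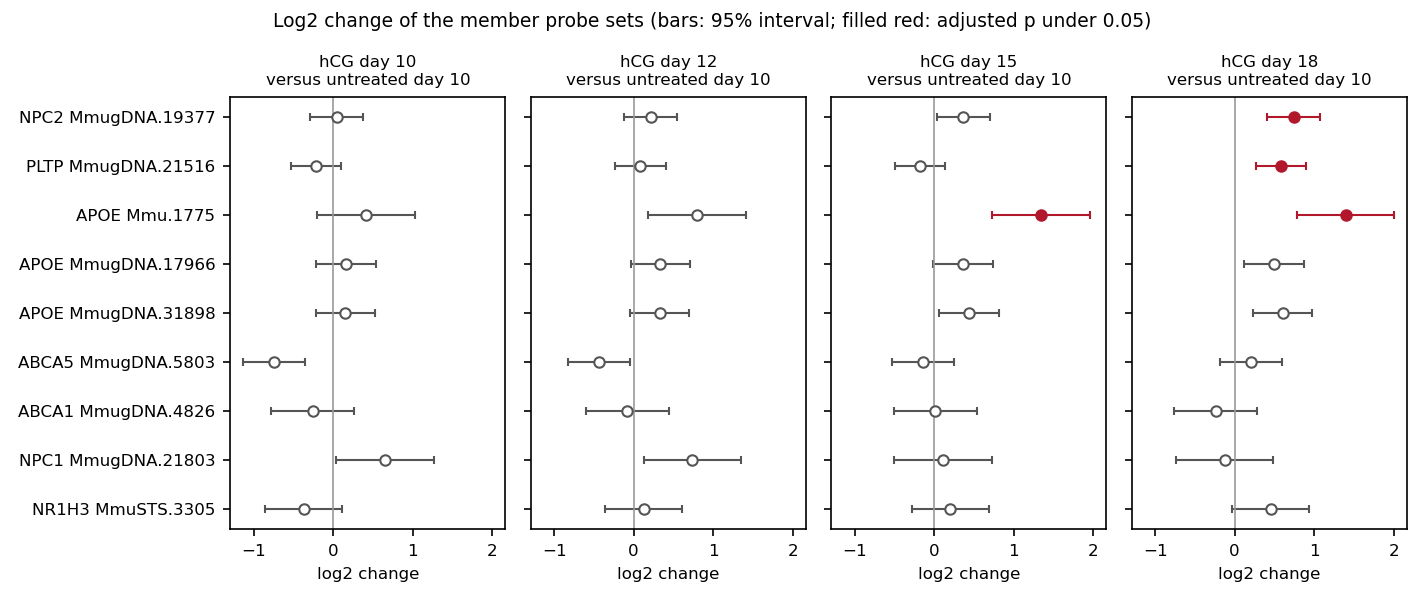
Log2 change of the 9 probe sets (horizontal axis) on each day of hCG against untreated day 10, 1 panel per day, with the 95% interval of the limma fit of 20 arrays. The plain APOE probe set is the row named Mmu rather than MmugDNA. Filled red points have an adjusted p under 0.05: the plain APOE probe set on hCG day 15, and NPC2, PLTP and the plain APOE probe set on hCG day 18.

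Between days of hCG, the comparison of day 18 with day 10 called 4 of the 9 probe sets, all higher, against 5.21% of all probe sets and 7.97% of genes. PLTP was 0.79 higher on the log2 scale (limma adjusted p = 0.00339), and ABCA5 was 0.95 ± 0.19 higher (limma adjusted p = 0.00436). NPC2 was 0.69 higher (limma adjusted p = 0.0138). NR1H3 was 0.82 ± 0.23 higher (limma adjusted p = 0.0445). In all 4 genes the day 18 arrays lay above the day 10 arrays without overlap, and without the 3 arrays that stood apart all 4 stayed called (limma adjusted p of at most 0.0388). Against untreated tissue ABCA5 on day 18 was at 0.20 (95% interval -0.19 to 0.59). The plain APOE probe set was at 0.99 ± 0.29 for day 18 against day 10 (limma adjusted p = 0.0585), and NPC1 was -0.78 ± 0.29 (limma adjusted p = 0.151). The NR1H3 call ended with median-centring (limma adjusted p = 0.111), with quantile normalisation (0.0595), with a pseudocount of 1 (0.0747), with only the arrays compared (0.107), and without untreated replicate 1 or 4, hCG day 10 replicate 1 or 4, hCG day 12 replicate 4, hCG day 15 replicate 3 or 4, or hCG day 18 replicate 1, 2 or 3 (up to 0.14). The NPC2 call ended with median-centring and without hCG day 10 replicate 2 (limma adjusted p = 0.0506 in both), and the ABCA5 call ended with only the arrays compared (limma adjusted p = 0.0555).

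The other comparisons between hCG days called none of the 9 probe sets with limma. For day 12 against day 10 the background of called probe sets was 0.518%, and 1 of the 9 had an unadjusted p under 0.05. For day 15 against day 10 the background was 1.9% with 3 such probe sets, and for day 18 against day 12 it was 1.43% with 4. For day 15 against day 12 and for day 18 against day 15 the background was 0%, so no probe set of the array was called. In these pairs 1 and 2 of the 9 had an unadjusted p under 0.05. Over all 52707 probe sets the unadjusted counts were 4362, 6308, 7076, 2705 and 3688 for these comparisons, in the order given. PLTP was at 0.76 ± 0.15 for hCG day 18 against hCG day 15 (unadjusted p = 7.83e-05, limma adjusted p = 0.271). In that pair the PLTP arrays did not overlap.

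Among the 9727 other genes with a single symbol in the upper 50% of probe sets by mean, those closest to each member were taken by Pearson's r of log2 values over the 20 arrays. The points share arrays, scaling and groups, so r is a description. NPC2 was followed most closely by PTPN6 (r = 0.90), CREG1 (0.88), PPT1 (0.88), NEU1 (0.87) and PLEKHA4 (0.87). PPT1 and NEU1 are lysosomal enzymes, and PTPN6 is a phosphatase of blood cells. CREG1 averaged 4851 on hCG day 18, against 2827 in untreated tissue.

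The APOE probe set with the highest mean, MmugDNA.31898.1.S1_s_at, had MTCH1 (0.87), DSTN (0.86), LOC697790 (0.86), NPC2 (0.84) and NAGPA (0.83) as its closest genes. NPC2 was thus the only other member among the 5 closest genes of any member. NR1H3 had MOSPD2 (0.84), SLC29A3 (0.83), PLBD1 (0.82), PPT1 (0.81) and TMEM273 (0.80), with PPT1 shared with NPC2. NPC1 had BCHE (0.81), CTSD (0.79), MT2A (0.76), HES2 (0.75) and COL12A1 (0.75), of which CTSD encodes the lysosomal protease cathepsin D. PLTP was closest to KDM2B (0.87), LOC700880 (0.78) and COL9A2 (0.78), and then TTC28 and LOC703921 (both 0.78). ABCA5 was closest to CHRNA5 (0.78), DIAPH2 (0.78), SMAD3 (0.77), LOC694250 (0.77) and SDC1 (0.76). Among the members, NPC2 and NR1H3 had r of 0.74, NPC2 and PLTP 0.63, and NPC1 and ABCA5 -0.53.

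Other genes of cholesterol handling were counted at 1 probe set per gene, in 6 lists. Against untreated tissue limma called 0 of their genes on hCG days 10, 12 and 15. The share of all genes called was 1.54%, 0.453% and 1.97%, at which lists of this size hold few calls or none. At most 6 genes of a list had an unadjusted p under 0.05, in the list of efflux and apolipoproteins (23 measured) on hCG day 15. Over all 52707 probe sets 6248 had such a p on that day. On hCG day 18 the uptake list had the highest median change, 0.68 beside -0.03 over all genes. Only 6 of its 13 genes were measured, and the lipoprotein receptor SCARB1 was not among them. In the uptake list VLDLR, a receptor for lipoproteins rich in triglyceride, was higher by 0.90 ± 0.21 (limma adjusted p = 0.0158). It was the 1 gene called there, beside 6.09% of all genes, and all 6 had a change above 0. CD36, a scavenger receptor also present on macrophages, was at 0.85 ± 0.28 (limma adjusted p = 0.112). Leaving out untreated replicate 4, or hCG day 18 replicate 1 or 2, ended the VLDLR call (limma adjusted p up to 0.0602).

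Of 23 measured genes of efflux, apolipoproteins and lipoprotein remodelling, limma called 0 on hCG day 18 against untreated tissue. In this list 3 had an unadjusted p under 0.05, and the median was 0.06. The share called over all genes was 6.09%, at which a list of this size holds few calls. LIPC, hepatic lipase, was at 0.83 ± 0.24 (limma adjusted p = 0.0635) and was called over the 5 groups (limma adjusted p = 0.0377). Between hCG days 18 and 10 the apolipoprotein APOA1 was lower by 0.79 (log2 change -0.79, limma adjusted p = 0.048) and lipoprotein lipase, LPL, was 1.56 higher (limma adjusted p = 0.048). The APOA1 call held only without untreated replicate 2, 3 or 4, hCG day 10 replicate 4, hCG day 12 replicate 2 or 4, hCG day 15 replicate 2 or hCG day 18 replicate 2, and ended with any of the other arrays left out (limma adjusted p up to 0.14). The LPL call held only without untreated replicate 1, hCG day 10 replicate 1, hCG day 12 replicate 1 or 3, or hCG day 15 replicate 3, and ended otherwise (up to 0.159). LPL had a limma adjusted p of 0.0635 without the 3 arrays that stood apart, and its call ended also with pseudocounts of 1 and 64 and with median-centring (0.0632 to 0.0714). The APOA1 call ended with a pseudocount of 1, the replicate block and only the arrays compared (0.0575 to 0.0829).

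Of 11 measured partners and further targets of LXR, limma called 0 on hCG day 18 against untreated tissue. In this list 4 had an unadjusted p under 0.05, and the median was -0.00373. With 6.09% of all genes called, a list of this size holds few calls or none. NR1H2, which encodes LXR beta, was at 0.36 ± 0.12 (limma adjusted p = 0.0944). Fatty acid synthase, FASN, was at 0.78 ± 0.25 (limma adjusted p = 0.1). MYLIP, a ubiquitin ligase that marks the LDL receptor for breakdown, was called over the 5 groups (limma adjusted p = 0.0339) and was 1.00 higher on hCG day 18 than on hCG day 10 (limma adjusted p = 0.00647). ABCG5 and ABCG8 stand in both this list and the efflux list, at mean signals under 16.

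Of 17 measured genes that move sterol inside the cell, 2 were called on hCG day 18 against untreated tissue, 1 in each direction. This count stands beside 6.09% of all genes called, and the list had a median of 0.08. TMEM97, a membrane protein that binds NPC1, was 1.04 ± 0.23 higher (limma adjusted p = 0.013), and caveolin, CAV1, was lower, at -0.56 ± 0.13 (limma adjusted p = 0.0169). TMEM97 was at 0.93 without the 3 arrays that stood apart (limma adjusted p = 0.0702), and leaving out untreated replicate 2 alone gave a limma adjusted p of 0.0516. With only the arrays of the groups compared it was 0.0569. The CAV1 call ended without untreated replicate 3 or hCG day 18 replicate 2 or 4 (limma adjusted p up to 0.0555).

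Of 12 genes of lysosomal lipid breakdown, 1 was called on hCG day 18 against untreated tissue, SMPD1, the acid sphingomyelinase, beside 6.09% of all genes, and the list had a median of 0.32. SMPD1 was 0.70 ± 0.19 higher (limma adjusted p = 0.0462), and its call ended without the 3 arrays that stood apart (0.67, limma adjusted p = 0.106) and without any 1 of the untreated or hCG day 18 arrays, hCG day 10 replicate 1 or 2, hCG day 12 replicate 1 or 4, or hCG day 15 replicate 3 (limma adjusted p up to 0.151). It ended too with a pseudocount of 1 and with median-centring (limma adjusted p = 0.0851 in both). ASAH1, acid ceramidase, was at 0.51 ± 0.15 (limma adjusted p = 0.0672). Of 6 genes of cholesteryl ester storage and lipid droplets limma called 0 on hCG day 18 against untreated tissue, with 2 at an unadjusted p under 0.05. The triglyceride lipase PNPLA2 was at -0.43 ± 0.13 (limma adjusted p = 0.0858), and SOAT2, which esterifies cholesterol, was at 0.98 ± 0.38 (limma adjusted p = 0.189).

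**Figure D3:**
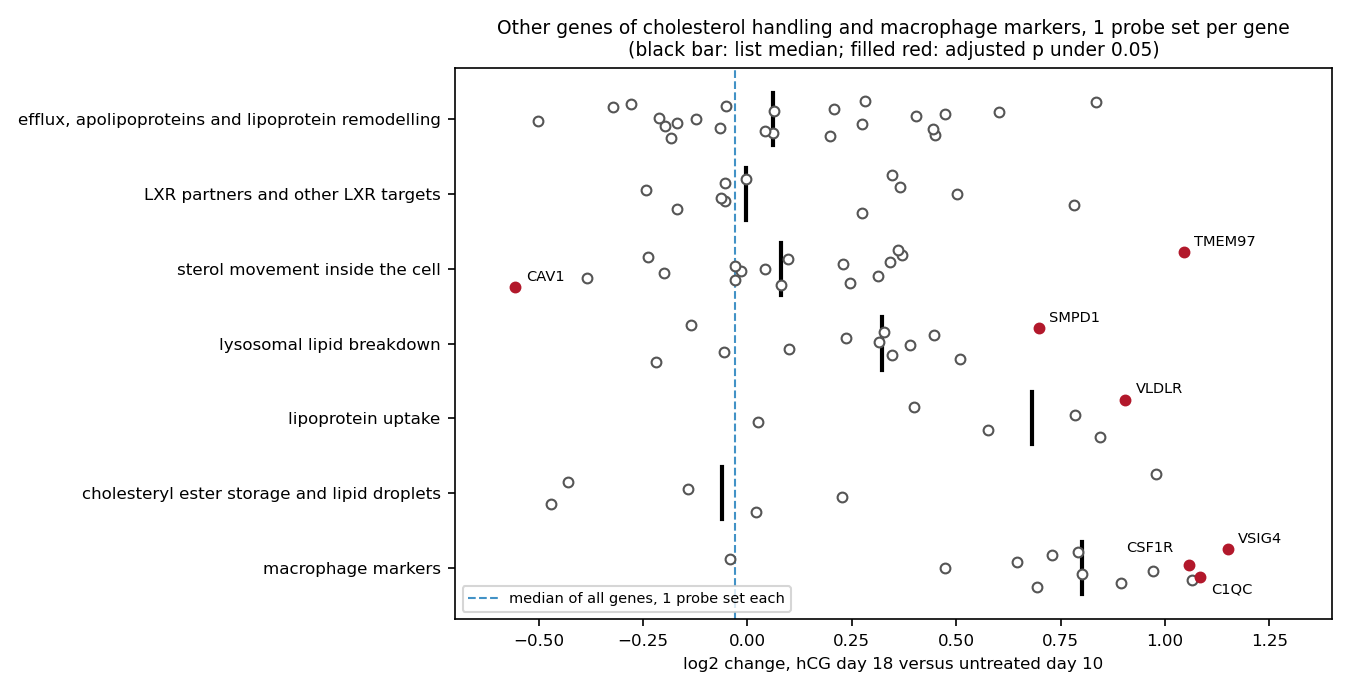
Log2 change on hCG day 18 against untreated day 10 (horizontal axis) of the genes of 6 cholesterol lists and of the macrophage markers (rows), 1 point per gene. Black bars are list medians, the dashed line is the median of all genes, and filled red points have an adjusted p under 0.05. The lipoprotein uptake and macrophage rows lie furthest to the right, with medians of 0.68 and 0.80.

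Some macrophage marker genes were called on hCG day 18, as some of the members were. The 13 measured markers include MARCO, which lay near background (highest group mean 13.5). On hCG day 18 against untreated tissue 12 had a change above 0, with a median of 0.80, and 3 were called, beside 6.09% of all genes. These were CSF1R, the receptor of a macrophage growth factor, at 1.06 (limma adjusted p = 0.0121), the complement gene C1QC at 1.08 (limma adjusted p = 0.0354) and the phagocytic receptor VSIG4 at 1.15 (limma adjusted p = 0.0383). Against hCG day 10, 7 of the 13 were called higher on hCG day 18, beside 7.97% of all genes called, with a median of 1.10. Without the 3 arrays that stood apart the counts were 3 and 6, and C1QC and VSIG4 were no longer called against untreated tissue (limma adjusted p = 0.0633 and 0.0721). With 1 array left out in turn the counts were 1 to 5 and 2 to 8. The C1QC call ended without untreated replicate 3 or 4 or hCG day 18 replicate 1, 2 or 3 (limma adjusted p up to 0.115), and the VSIG4 call without untreated replicate 2, 3 or 4 or hCG day 18 replicate 1 or 3 (up to 0.123). With only the arrays of the groups compared limma called 0 markers against untreated tissue (CSF1R 0.0729, C1QC 0.153, VSIG4 0.154), and with a pseudocount of 1 it called 1.

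The summed signal of the 13 markers was 4242 to 11931 in untreated tissue, 5577 to 7739.6 on hCG day 10, 5387 to 8071 on hCG day 12, 6518 to 9760.5 on hCG day 15 and 10999 to 20178 on hCG day 18. The defining markers CD14, CD68 and CSF1R were above 16 in all 20 arrays, at lowest values of 357, 394 and 212. They are the 3 measured of 4, as CD163 had no probe set with a single symbol. Untreated arrays spanned a wide range and reached into that of hCG day 18. In whole tissue more cells of a type and more RNA per cell cannot be told apart.

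Over the 20 arrays, the mean log2 value of the macrophage markers had a Pearson's r of 0.73 with PLTP, 0.69 with NPC2, 0.54 with NR1H3, 0.50 with the plain APOE probe set, 0.31 with ABCA5 and -0.27 with NPC1. Taken as deviations from group means, r was 0.53, 0.37, 0.31, 0.32, -0.51 and 0.27 for the same genes in that order. For PLTP and NPC2 r was lower within groups than over all arrays, which pool differences between groups with those within them. The size of this drop was not tested. ABCA5 had a negative r within groups. The part of macrophage RNA in the changes of PLTP, NPC2, APOE and NR1H3 was not tested.

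**Figure D4:**
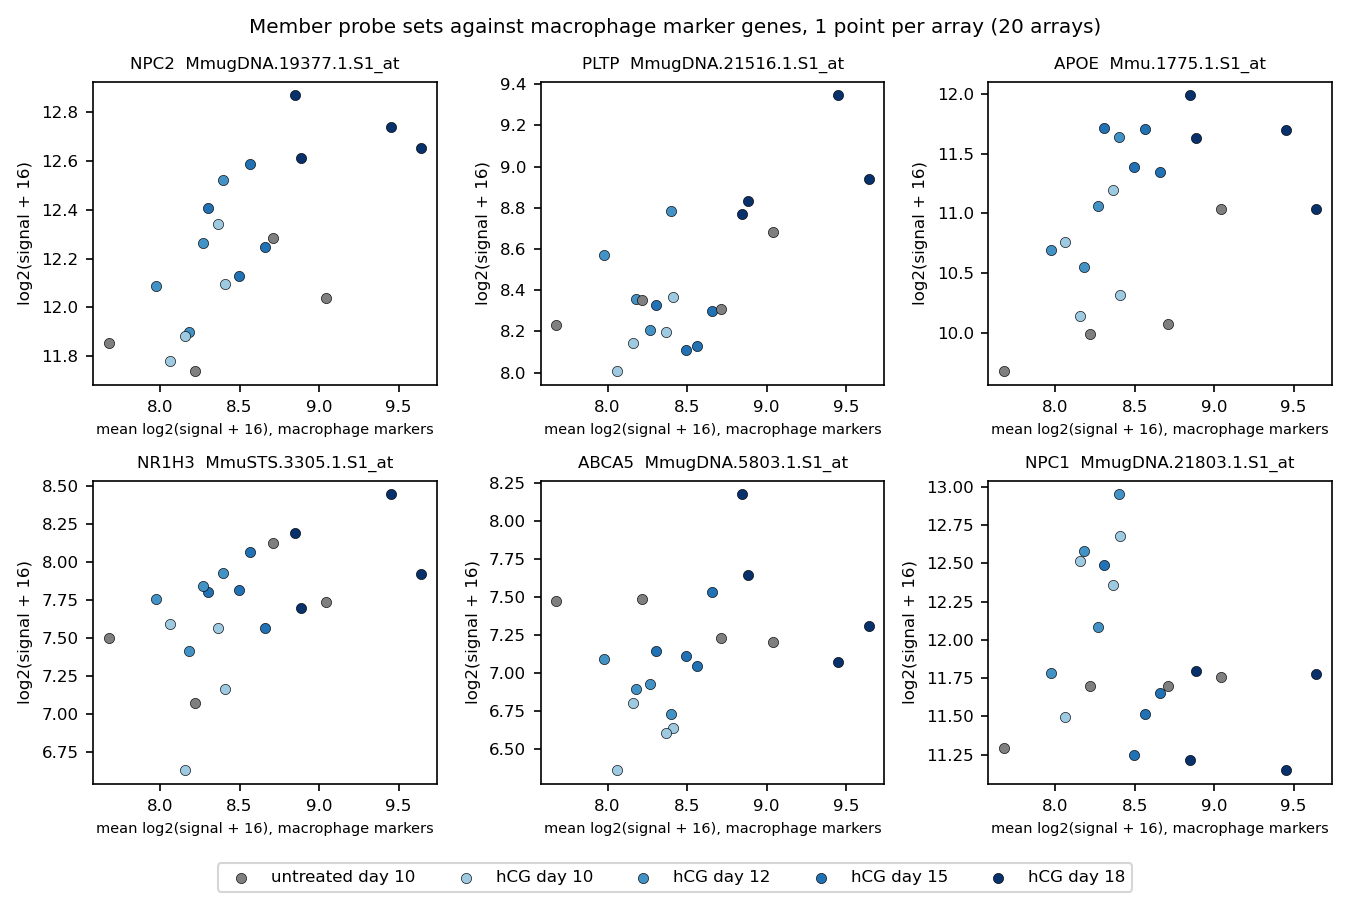
Log2(signal + 16) of 6 genes (vertical axes) against the mean log2(signal + 16) of the 13 macrophage markers (horizontal axis), 1 point per array, coloured by group from untreated day 10 to hCG day 18. The hCG day 18 arrays lie to the right of all other hCG arrays, and untreated replicate 1 lies to the right of 2 of them.

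Markers of the other cell types of the tissue were counted the same way, beside the same 6.09% of all genes on hCG day 18 against untreated tissue. Among 5 luteal cell markers 1 was called on hCG day 18 against untreated tissue, the steroid enzyme gene HSD3B2, which was lower at -1.83 (limma adjusted p = 4.44e-05). It had 2340 on hCG day 18, against 8320.3 in untreated tissue. The other 4 luteal markers had changes above 0 and were not called, from 0.02 for FDX1 to 0.78 for CYP19A1 (limma adjusted p = 0.109), and the median of the 5 was 0.23. Among 7 fibroblast markers THY1 was lower at -1.06 (limma adjusted p = 0.00125) and the other 6 were not called in this comparison, while COL1A1 was called over the 5 groups (limma adjusted p = 0.0158). None of 9 endothelial, 5 smooth muscle and pericyte, and 7 lymphocyte markers was called by limma on hCG day 18 against untreated tissue, with 0, 1 and 2 of them at an unadjusted p under 0.05. For hCG day 18 against hCG day 10 the leukocyte marker PTPRC was 1.36 higher (limma adjusted p = 0.0306), and this call ended with a pseudocount of 1 (0.0515), with only the arrays compared (0.0953) and without hCG day 10 replicate 2 or 3 or hCG day 18 replicate 1 or 3 (up to 0.113). Summed endothelial signals were 7100.4 to 8789 on hCG day 18 and 6883 to 8775 in untreated tissue.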

How the data were processed

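Total RNA of 20 macaque corpora lutea was measured on a 1-colour Affymetrix array. The deposited values are linear intensity signals from GCOS, per the submitters' processing notes; that all arrays share 1 trimmed mean was read from the deposited values, and its target and the GCOS version are not given in the sources used here. The file was used as deposited. Of 52865 probe sets, 158 controls were left out. The platform annotation gives 24956 of the rest 1 symbol, 361 several and 27390 none. Log2(signal + 16) was fitted with limma 3.58.1 in R 4.3.3 (lmFit on 5 group means, eBayes), with contrasts against untreated tissue and between hCG days. Figures were drawn with matplotlib 3.10.9. Tested on simulated data for hCG day 18 against untreated tissue over 52707 probe sets, the fit recovered 47 of 100 probe sets changed 2-fold and 94 of 100 changed 4-fold, and called 4 unchanged ones. The number of arrays, 4 a group, limits the precision.

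All member probe sets are named. A list's genes are named where they passed the threshold over the 5 groups or against untreated tissue (at most 4 a comparison, ranked by adjusted p); where none passed, the 2 with the lowest p are given. APOA1, LPL, CD36, ASAH1, PTPRC, CYP19A1 and FDX1 fall outside this rule, and they and the alternatives for list genes were chosen after their values were seen. For likeness, the 5 genes of highest r are named. A gene with several probe sets is represented by the one with the highest mean. The members and lists were chosen with earlier results of these data known. Alternatives were pseudocounts of 1 and 64, median-centring, quantile normalisation, the upper 50% of probe sets, array weights, a trend of variance with level, only the arrays compared, the replicate number as a block, 1 probe set per gene, 3 arrays left out, and each array left out.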

Additional observations from a re-analysis of the deposited data

Results flagged for a closer look

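In ABCA1, hCG day 15 replicate 1 read 20.5 where the other 3 arrays of its group read 4.86 to 5.45, and untreated replicate 4 read 32.2 where the others read 2.43 to 3.55. Both lie far from their groups, at the edge of background. In NPC1, untreated replicate 4 read 2498 where the other 3 untreated arrays read 3302 to 3443. Of 45 groups of 4 arrays examined, these 3 held an array far from the others, and chance gives about 1 in 20.

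By the limma contrast, hCG day 18 differed from hCG day 10 in 4 of the 9 probe sets, against 5.21% of all probe sets and 7.97% of genes. Days of hCG, luteal day and dose go up together between these groups and cannot be told apart. The log2 differences were 0.69 for NPC2, 0.79 for PLTP, 0.95 for ABCA5 and 0.82 for NR1H3, with limma adjusted p of 0.0138, 0.00339, 0.00436 and 0.0445. The NR1H3 call ended under 4 of 11 alternative settings and with 10 of the 20 arrays left out in turn. That of NPC2 ended under 1 setting and without 1 array, and that of ABCA5 under 1 setting.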

How the results depend on the processing

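No called value changed sign under any alternative. The number of member probe sets called on hCG day 15 was 0, not 1, with a pseudocount of 1, 1 probe set per gene, only the arrays compared, and the 3 arrays apart on the third component left out; with 1 probe set per gene the plain APOE probe set is not in the fit, so that 0 follows from the setting. On hCG day 18 the count was 2 to 4 over the settings, with PLTP lost at a pseudocount of 1, with only the arrays compared and without the 3 arrays. Over the 5 groups 2, not 4, were called with median-centring, and on hCG day 10 it was 1 (ABCA5), not 0, with the upper 50% of probe sets, array weights or 1 probe set per gene. With each array left out in turn, counts were 2 to 4 over the 5 groups, 0 to 1 on hCG day 10 (ABCA5, without hCG day 18 replicate 2 or 3), 0 to 0 on day 12, 0 to 1 on day 15 and 2 to 4 on day 18. The day 15 call of APOE ended without untreated replicate 2, 3 or 4 or hCG day 15 replicate 2, 3 or 4 (limma adjusted p up to 0.0909). The F test's call of NPC2 ended without any of 10 arrays (untreated replicates 1, 3 and 4, hCG day 10 replicates 1, 2 and 4, and the 4 of hCG day 18; limma adjusted p up to 0.106), that of PLTP without hCG day 18 replicate 3 (0.0593), that of APOE without untreated replicate 3 or 4 (up to 0.0501) and that of ABCA5 without hCG day 10 replicate 2 or 3 (up to 0.0623). Against hCG day 10, NPC2 ended without hCG day 10 replicate 2 (0.61, limma adjusted p = 0.0506). With the replicate number as a block (replicate block), counts were 3 over the 5 groups, with NPC2 at a limma adjusted p of 0.0501, and 0, 0, 1 and 3 on hCG days 10, 12, 15 and 18; 5 macrophage markers were called on hCG day 18 against untreated tissue, not 3, beside 0 with only the arrays compared. The numbers were not taken to pair the samples: deviations of same-numbered arrays correlated at -0.281 to 0.363, and 7 of 20 arrays correlated best with their own number. The causes of these shifts were not tested. Signals near background, as in ABCA1, limit what 4 arrays a group can show.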
